A study of Mus musculus with 8 samples.

Results

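The genes described here are 10 genes of intestinal iron absorption and iron storage, taken by gene symbol from a count table of 55421 mouse genes. They are Fth1 and Ftl1 (storage), Slc11a2 and Cybrd1 (uptake from the gut lumen), Slc40a1 and Heph (export to the blood), Tfrc and Steap3 (uptake of transferrin-bound iron), Slc39a14 (uptake of iron not bound to transferrin) and Hmox1 (release of iron from haem). All 10 were present in the table and all 10 passed the filter on low counts. Bulk RNA-seq was made from the small intestine of wild-type mice. Both groups had been exposed to 7% oxygen for 7 days: 4 libraries came from mice with no further treatment (Hypoxia 1 to 4) and 4 from mice that were also given 4 mM nitrate (Hypoxia+Nitrate 1 to 4). No group kept at normal oxygen was analysed here, so the comparison is of nitrate within hypoxia. The labels give no strain, age, sex or gut segment, and leave it unsaid whether every library is a different animal. The p-values therefore describe only how these libraries vary, which may be technical. In bulk tissue, fewer cells of a type and less RNA per cell cannot be told apart.

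Iron from food is reduced at the brush border of enterocytes by Cybrd1 and carried into the cell by the divalent metal transporter Slc11a2. Inside the cell it is stored in ferritin, a shell built of Fth1 and Ftl1 chains, or leaves across the basolateral membrane through ferroportin (Slc40a1), with hephaestin (Heph) oxidising it for loading onto transferrin. Iron regulatory proteins bind a hairpin, the iron-responsive element, in mRNAs of this pathway when iron is scarce: in a 5′ UTR the hairpin blocks translation, and in the 3′ UTR of Tfrc it protects the mRNA from decay. Transcription factors of the hypoxia-inducible family, above all Epas1 in enterocytes, are known to raise transcription of Slc11a2, Cybrd1 and Slc40a1.

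The hairpins of the genes whose values are given below were read from GENCODE M21 transcripts (build GRCm38). They are shown because they mark which members match the search pattern used here for the shared control element. The search was on the sense strand of annotated UTRs, for a C, 5 bases, a CAGTGN loop and 5 bases that all pair with the first 5 (G-T pairs allowed). Each sequence is written 5′ to 3′ on the gene's strand, with the loop in capitals. The 5′ UTR matches lie at chr19:9982733-9982759 (plus strand) in Fth1, chr7:45459780-45459806 (minus strand) in Ftl1 and chr1:45925466-45925492 (minus strand) in Slc40a1. The matches in the 3′ UTR of Tfrc lie at chr16:32631220-32631246, chr16:32631599-32631625, chr16:32631664-32631690 and chr16:32631711-32631737 (plus strand), in the order of the sequences below.
Fth1 5′ UTR: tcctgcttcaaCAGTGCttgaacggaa
Ftl1 5′ UTR: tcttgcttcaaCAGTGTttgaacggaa
Slc40a1 5′ UTR: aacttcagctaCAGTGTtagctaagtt
Tfrc 3′ UTR: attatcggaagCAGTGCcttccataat
Tfrc 3′ UTR: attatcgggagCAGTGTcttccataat
Tfrc 3′ UTR: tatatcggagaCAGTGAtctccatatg
Tfrc 3′ UTR: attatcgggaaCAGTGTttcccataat
The same search found a match in the 5′ UTR of 31 of 21901 protein-coding genes (0.142%) and in the 3′ UTR of 129 (0.589%). A match is a description of the sequence. For the other 6 members the search says only that these letters were not found in the UTRs searched. A hairpin with an unpaired base among the 5 pairs would be missed, so these members may still carry the element.

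The libraries differed in ways that touch every value below. Total counts ran from 5345377 to 63943036. Reads that fall on genes silent in gut were estimated per library, in counts per kilobase, from 1472 genes of odorant, trace-amine and vomeronasal receptors. In Hypoxia this background, taken over the exons of all nuclear protein-coding genes, amounted to 39.1% to 63.7% of their counts. It was 23.2% and 19.6% in Hypoxia+Nitrate 2 and 3 and 2.85% and 2.75% in Hypoxia+Nitrate 1 and 4. The groups do not overlap in it, so background and treatment cannot be told apart by the design. The tissue label was checked on 10 markers of absorptive enterocytes: all 10 rose, and their summed level was 54.6 to 820 CPM (counts per 1000000, after TMM scaling) in Hypoxia against 1348 and 2399 in Hypoxia+Nitrate 3 and 2, and 45662 and 45576 in 1 and 4. The enterocyte markers stood at only 1.89 and 2.02 times the background in Hypoxia 4 and 3, and at 7.47 and 33.4 times in Hypoxia 1 and 2. All 5 smooth muscle markers rose too, from a summed 58.3 to 382 CPM to 1170 to 2492 CPM, whereas none of 5 hepatocyte and 8 red cell markers passed the test in either direction. No marker of these lists was at 0 in all libraries of a group. What part these differences have in the results below was not tested.

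Over the 10 members, 5 rose in Hypoxia+Nitrate by edgeR's quasi-likelihood test with Benjamini-Hochberg adjustment over the 35431 genes tested: Fth1, Ftl1, Tfrc, Heph and Hmox1. The background for that count is 11.7% of all genes tested and 18.5% of nuclear protein-coding genes called higher. Slc40a1 and Steap3 were called lower, beside 12.7% of all genes tested and 9.75% of nuclear protein-coding genes. Slc11a2, Cybrd1 and Slc39a14 did not pass. The median log2 fold change of the 10 was 1.02, beside -0.58 over all genes tested and 0.04 over nuclear protein-coding genes. Counted by libraries that do not overlap in CPM, 3 members were higher (12.0% of all genes tested) and 3 lower (28.8%) in Hypoxia+Nitrate, and 4 overlapped. The receptor genes themselves had a median log2 fold change of -2.63, and 344 of the 1303 tested were called lower and 6 higher. In the summed Hypoxia libraries, 7 of the 10 members had counts inside the range that holds the central receptor genes (0.233 to 2.57 times the expected background). Fth1, Ftl1 and Hmox1 were the 3 above it, at 22.8, 57.7 and 2.64 times, so Hmox1 was only just above. In single Hypoxia libraries 1 to 4 the receptor-gene range reached 2.90, 3.17, 2.95 and 3.06 times. Hmox1 stood at 1.99, 5.04, 2.04 and 2.38 times there, above the range in Hypoxia 2 only. In Hypoxia+Nitrate 1 to 4 the receptor-gene range ran from 0 to 8.07, 6.43, 9.16 and 9.16 times.

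**Figure D1:**
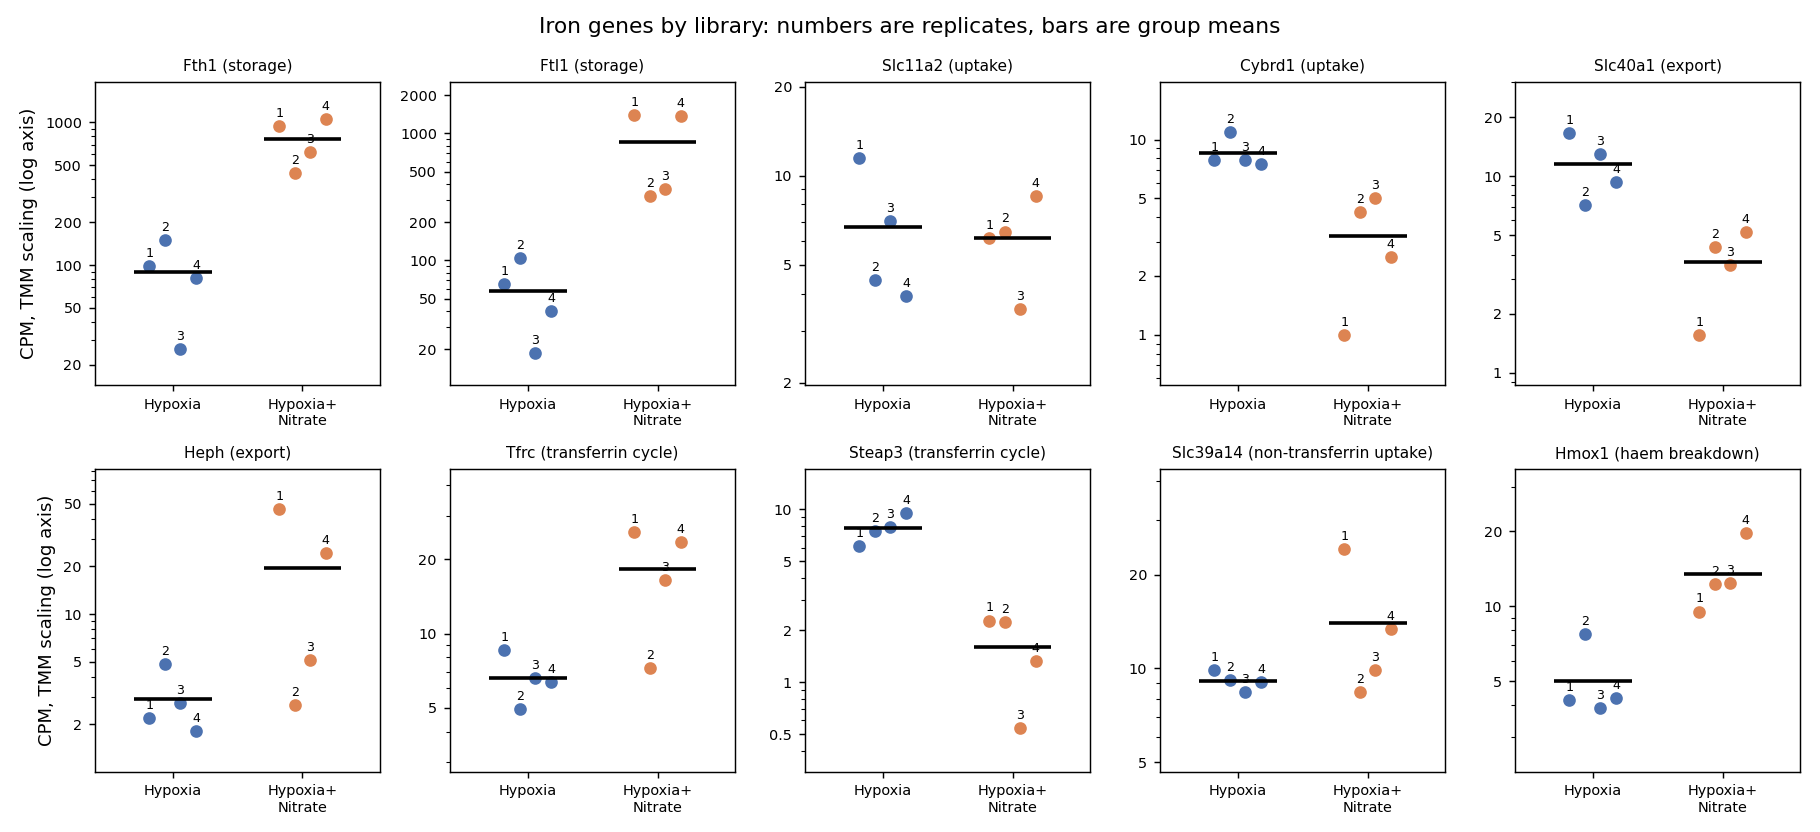
CPM with TMM scaling of each of the 10 genes on a log axis, 1 panel per gene, with Hypoxia on the left and Hypoxia+Nitrate on the right; numbers are replicates and bars are group means. Fth1, Ftl1 and Hmox1 are higher in all 4 Hypoxia+Nitrate libraries than in any Hypoxia library, and Cybrd1, Slc40a1 and Steap3 are lower.

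The ferritin genes were the most abundant members and had the largest fold changes of the 10 under TMM scaling, though not with the background subtracted or as a covariate. Fth1, at chr19:9980598-9985098 on the plus strand, encodes the heavy chain, which oxidises iron as it enters the shell. It stood at 97.8, 150.4, 25.9 and 81.2 CPM in Hypoxia 1 to 4 and at 949.8, 442, 624 and 1062 CPM in Hypoxia+Nitrate 1 to 4. The groups did not overlap, with Hypoxia 3 the lowest of all 8 libraries. Fth1 rose with a log2 fold change of 3.11 (SE 0.762, n = 4 and 4, edgeR adjusted p = 0.0165). Its counts exceeded the expected background in each library, from 6.85 times in Hypoxia 3 to 1319 times in Hypoxia+Nitrate 4. The call was lost without Hypoxia 1 (adjusted p = 0.0659) or Hypoxia 4 (0.0627), and with the background subtracted the log2 fold change was 1.92 (limma-voom adjusted p = 0.0526).

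Ftl1, at chr7:45457944-45459884 on the minus strand, encodes the light chain, which helps form the iron core. Its values were 65.6, 104, 18.8 and 40.1 CPM in Hypoxia and 1402, 319.8, 366 and 1359.7 CPM in Hypoxia+Nitrate. No Hypoxia library reached any Hypoxia+Nitrate library, and within the latter replicates 1 and 4 stood well above 2 and 3. Ftl1 rose with a log2 fold change of 3.92 (SE 0.897, edgeR adjusted p = 0.0131), and was the only ferritin gene still called after subtraction of the background (2.43, SE 0.622, limma-voom adjusted p = 0.0300). The call was lost without Hypoxia 1 (adjusted p = 0.0580) or Hypoxia 4 (0.0548).

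Only 65.4% of the exonic length of Ftl1 is free of other annotated genes, and both ferritin genes have near-identical pseudogene copies that can share reads with them. Counts on Ftl1-ps1, Ftl1-ps2 and Ftl2-ps came to 13.0%, 43.6%, 278% and 75.1% of the Ftl1 counts in Hypoxia 1 to 4, and to 2.69%, 28.1%, 27.7% and 4.28% in Hypoxia+Nitrate 1 to 4. In Hypoxia 3, more reads were therefore assigned to the copies than to the parent gene. Those on Fth-ps2 and Fth-ps3 were at most 19.1% of Fth1, again in Hypoxia 3. With the pseudogene counts added to the parents, Ftl1 had a log2 fold change of 3.36 (SE 0.784, edgeR adjusted p = 0.0141) and Fth1 of 3.08 (SE 0.744, adjusted p = 0.0159).

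Neither gene of uptake from the lumen passed the test under TMM scaling. Slc11a2, at chr15:100387898-100425072 on the minus strand, stood at 11.5, 4.44, 7.01 and 3.91 CPM in Hypoxia and at 6.18, 6.48, 3.54 and 8.54 CPM in Hypoxia+Nitrate. The groups overlapped throughout, and the log2 fold change was -0.12 (SE 0.502, edgeR adjusted p = 0.872). In Hypoxia its counts were 0.640 to 1.60 times the expected background, so a level of its own was not detectable there. In Hypoxia+Nitrate 1 and 4 they were 4.95 and 6.18 times the background, and in 2 and 3 they were 1.51 and 0.926 times. Each of these lay inside the receptor-gene range of its library.

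Cybrd1, at chr2:71117923-71142926 on the plus strand, is the brush border ferric reductase. It stood at 7.88, 10.9, 7.85 and 7.47 CPM in Hypoxia and at 0.995, 4.26, 5.01 and 2.49 CPM in Hypoxia+Nitrate. The groups did not overlap, yet the log2 fold change of -1.41 missed the threshold (SE 0.550, edgeR adjusted p = 0.0809). Cybrd1 was called lower in 5 of the 22 alternatives: with DESeq2 (-1.71, adjusted p = 0.00406), RLE scaling (-1.72, 0.0359), limma-voom (-1.56, 0.0374), upper-quartile scaling (-1.76, 0.0469), and without Hypoxia+Nitrate 2 (-1.55, 0.0428). Relative to background the groups did overlap, at 1.22 to 2.34 times in Hypoxia and 0.888 to 2.01 times in Hypoxia+Nitrate. The Cybrd1 counts lay inside the receptor-gene range of every library, so they could not be told from background.

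Of the export genes, Slc40a1 was called lower and Heph higher. Slc40a1, at chr1:45908068-45926523 on the minus strand, encodes ferroportin, the known cellular iron exporter. Its values were 16.7, 7.13, 13.0 and 9.33 CPM in Hypoxia and 1.56, 4.38, 3.54 and 5.22 CPM in Hypoxia+Nitrate, with no overlap. Slc40a1 was called lower, by 1.64 on the log2 scale (SE 0.500, edgeR adjusted p = 0.0360). Its counts were 0.907 to 1.53 times the expected background in Hypoxia and 0.612 to 2.50 times in Hypoxia+Nitrate. They lay inside the receptor-gene range of every library, so they could not be told from background, and the call does not show a change of Slc40a1 RNA itself. The call was lost without Hypoxia 1, 2, 3 or 4 (adjusted p = 0.117, 0.0505, 0.0930 and 0.0837) and without Hypoxia+Nitrate 1 or 3 (0.0550 and 0.0570).

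Heph, at chrX:96455359-96574485 on the plus strand, encodes the membrane-bound ferroxidase that works beside ferroportin. It stood at 2.20, 4.80, 2.74 and 1.81 CPM in Hypoxia and at 45.9, 2.67, 5.12 and 24.3 CPM in Hypoxia+Nitrate. Hypoxia+Nitrate 1 and 4 were high, whereas replicates 2 and 3 lay within or just above the Hypoxia range, so the groups overlapped. Its counts were 0.460 to 1.44 times the expected background in Hypoxia, against 57.3, 0.973, 2.09 and 27.5 times in Hypoxia+Nitrate 1 to 4. Those of every Hypoxia library and of Hypoxia+Nitrate 2 and 3 lay inside the receptor-gene range of their libraries, so they could not be told from background. Heph rose with a log2 fold change of 2.75 (SE 0.823, edgeR adjusted p = 0.0338), and without Hypoxia+Nitrate 1 and 4 the value was 0.53 (adjusted p = 0.532). Libraries 1 and 4 are also those with the highest enterocyte markers and the lowest background, and the part of either in the value was not tested. The call was also lost without Hypoxia 1, 2, 3 or 4 (adjusted p = 0.107, 0.0559, 0.100 and 0.0913) and without Hypoxia+Nitrate 1 or 4 alone (0.0911 and 0.0587), under upper-quartile scaling (2.35, 0.0545), and with the background subtracted (limma-voom adjusted p = 0.159).

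**Figure D2:**
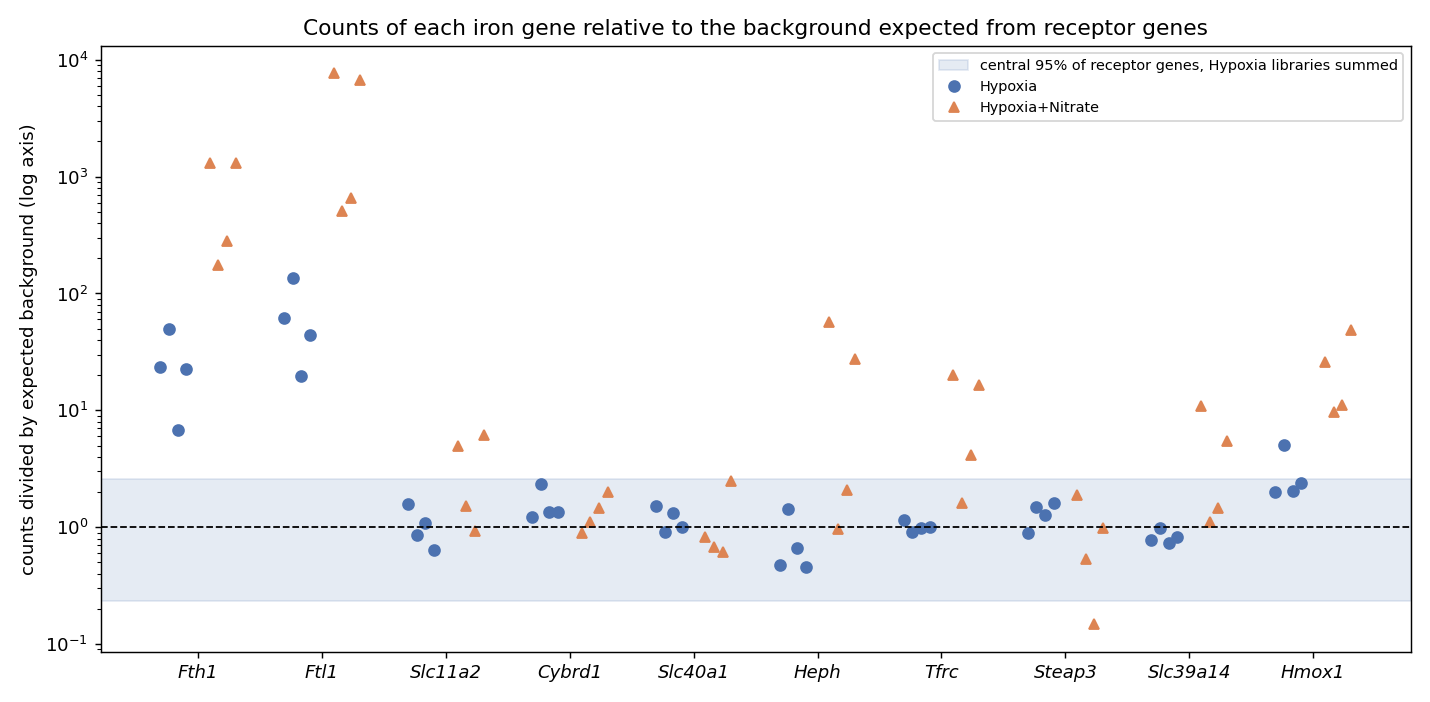
Counts of each of the 10 genes divided by the counts expected from the receptor-gene background, per library, on a log axis with the dashed line at 1 and a shaded band for the central range of the receptor genes in the summed Hypoxia libraries. In the summed Hypoxia+Nitrate libraries, which the band does not describe, that range was 0 to 7.41 times. Fth1 and Ftl1 are far above the line in every library. Slc11a2, Heph, Tfrc and Slc39a14 lie near the line in Hypoxia and are highest in Hypoxia+Nitrate 1 and 4, and Cybrd1, Slc40a1 and Steap3 lie inside or below the band in all 8 libraries.

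Tfrc, at chr16:32608920-32632794 on the plus strand, encodes the transferrin receptor, which dividing crypt cells use to take iron from the blood. It stood at 8.61, 4.95, 6.59 and 6.38 CPM in Hypoxia and at 25.9, 7.22, 16.5 and 23.5 CPM in Hypoxia+Nitrate. Only Hypoxia+Nitrate 2 fell within the Hypoxia range. Tfrc rose with a log2 fold change of 1.46 (SE 0.464, edgeR adjusted p = 0.0421). In Hypoxia its counts were 0.916 to 1.15 times the expected background, against 19.9, 1.62, 4.15 and 16.4 times in Hypoxia+Nitrate 1 to 4. The values of Hypoxia+Nitrate 2 and 3 lay inside the receptor-gene range of their libraries. The call was lost without Hypoxia 1, 2, 3 or 4 (adjusted p = 0.0861, 0.108, 0.114 and 0.0888) and without Hypoxia+Nitrate 1 or 4 (0.0801 and 0.0851). It was also lost under RLE (1.22, 0.0834) and upper-quartile scaling (1.05, 0.104). With DESeq2 (1.23, 0.0519), limma-voom (1.32, 0.0504) and on nuclear protein-coding genes only (1.09, 0.0686) it was lost as well. The call held in 6 of the 22 alternatives.

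Steap3, at chr1:120190757-120272705 on the minus strand, encodes the endosomal reductase that acts on iron released from transferrin. Its values were 6.14, 7.49, 7.96 and 9.52 CPM in Hypoxia and 2.27, 2.22, 0.544 and 1.32 CPM in Hypoxia+Nitrate. All 4 Hypoxia+Nitrate libraries lay below every Hypoxia library. Steap3 was called lower, by 2.29 on the log2 scale (SE 0.585, edgeR adjusted p = 0.0191). Its counts were 0.889 to 1.62 times the expected background in Hypoxia and 0.148 to 1.90 times in Hypoxia+Nitrate. They lay inside the receptor-gene range of every library, so they could not be told from background. The call was lost without Hypoxia 1, 3 or 4 (adjusted p = 0.0548, 0.0565 and 0.0729).

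Slc39a14, at chr14:70303469-70351425 on the minus strand, encodes ZIP14, a zinc and iron importer. It stood at 9.88, 9.17, 8.38 and 9.03 CPM in Hypoxia and at 24.2, 8.41, 9.91 and 13.4 CPM in Hypoxia+Nitrate. The groups overlapped through Hypoxia+Nitrate 2, and the log2 fold change of 0.62 did not pass (SE 0.424, edgeR adjusted p = 0.283). Its counts were below the expected background in all 4 Hypoxia libraries (0.728 to 0.995 times) and above it in all 4 Hypoxia+Nitrate libraries (10.9, 1.11, 1.46 and 5.46 times). Of these, only Hypoxia+Nitrate 1 lay above the receptor-gene range of its library. With the background subtracted Slc39a14 was called higher (limma-voom adjusted p = 0.000527), starting from levels at or below 0 in Hypoxia, so no fold is given.

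Hmox1, at chr8:75093621-75100589 on the plus strand, encodes the inducible haem oxygenase, abundant in macrophages that clear red cells. It stood at 4.21, 7.71, 3.90 and 4.28 CPM in Hypoxia and at 9.52, 12.2, 12.4 and 19.7 CPM in Hypoxia+Nitrate, with no overlap. Hmox1 rose with a log2 fold change of 1.42 (SE 0.428, edgeR adjusted p = 0.0347). Its counts were 1.99 to 5.04 times the expected background in Hypoxia, where only Hypoxia 2 lay above the receptor-gene range of its library. In Hypoxia+Nitrate they were 9.70 to 48.5 times the background. Of 10 macrophage markers, 2 were called higher (C1qa and Lyz2, named after their values were seen) and none lower. Adgre1 (-1.11), Cd163 (-1.09), Mrc1 (-0.70), Cd5l (-0.57) and Cd68 (-0.52) had negative log2 fold changes. Those of Csf1r (0.14), C1qb (0.93) and C1qc (1.19) were positive. The summed level of the 10 was 43.1 to 64.6 CPM in Hypoxia and 53.4 to 132 CPM in Hypoxia+Nitrate, and these ranges overlapped. The part of macrophages in the Hmox1 value was not tested. The call was lost without Hypoxia 1, 3 or 4 (adjusted p = 0.107, 0.118 and 0.0850), without Hypoxia+Nitrate 4 (0.0927), and under RLE (1.15, 0.0617) and upper-quartile scaling (1.02, 0.0862). With the background subtracted the log2 fold change was 0.64 (limma-voom adjusted p = 0.541), and the groups overlapped, with Hypoxia+Nitrate 1 the lowest of all 8 libraries.

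Per kilobase of exon, the level in Hypoxia+Nitrate ran from ferritin down to Steap3. Ftl1 was highest at a mean of 643 CPM per kilobase (239 to 1046 over the 4 libraries), followed by Fth1 at 222 (127 to 306), with ranges that overlapped. Hmox1 came next at 7.69 (5.44 to 11.3) and was apart from both neighbours in the order. Below it, Tfrc at 2.95, Heph at 2.55, Slc39a14 at 1.32, Slc11a2 at 0.973, Cybrd1 at 0.597, Slc40a1 at 0.408 and Steap3 at 0.278 each overlapped with the next. In Hypoxia the ferritin genes led as well, at 42.6 (Ftl1) and 25.6 (Fth1) CPM per kilobase, and the other 8 lay between 0.377 (Heph) and 2.87 (Hmox1). These levels include background. Slc11a2, Cybrd1, Slc40a1 and Steap3 lay inside the receptor-gene range of every Hypoxia+Nitrate library. All members but Fth1, Ftl1 and Hmox1 lay inside the range of the summed Hypoxia libraries. The order among such genes is therefore one of counts that could not be told from background.

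Ratios of counts within a library need no scaling between libraries. The ratio of Fth1 to Tfrc, storage against transferrin uptake, was 11.4, 30.4, 3.94 and 12.7 in Hypoxia and 36.7, 61.2, 37.9 and 45.2 in Hypoxia+Nitrate, with no overlap. That of Tfrc to Slc40a1 was 0.508 to 0.694 in Hypoxia and 1.65 to 16.5 in Hypoxia+Nitrate, again with no overlap. In the summed Hypoxia libraries the background alone would give 420 counts for Tfrc and 611 for Slc40a1, and 428 and 749 were found. The Hypoxia ratio of Tfrc to Slc40a1 is therefore made of counts that could not be told from background. In the ratio of Fth1 to Tfrc the same holds for Tfrc in Hypoxia and in Hypoxia+Nitrate 2 and 3. The Hypoxia values of that ratio therefore do not measure storage against transferrin uptake. In Hypoxia+Nitrate Slc40a1 had 271 counts, with 290 expected from background. The heavy to light chain ratio, Fth1 to Ftl1, was 1.49, 1.45, 1.38 and 2.03 against 0.677, 1.38, 1.70 and 0.781, and the groups overlapped. Reads from background enter both terms of each ratio, in proportion to gene length, and their part in the ratios was not tested.

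Of the counts on nuclear protein-coding genes, both ferritin genes together took 0.0938%, 0.124%, 0.0243% and 0.0601% in Hypoxia and 0.348%, 0.268%, 0.329% and 0.312% in Hypoxia+Nitrate. The 4 Hypoxia+Nitrate libraries were close to each other on this scale even though their mitochondrial share ran from 6.90% to 64.0%. Of all counts on the 10 members, ferritin held 43.8% to 81.8% in Hypoxia and 94.1% to 96.1% in Hypoxia+Nitrate. After subtraction of the background and division by the remaining nuclear protein-coding counts, Ftl1 stood at 212 to 1021 per 1000000 in Hypoxia and 1461 to 2137 in Hypoxia+Nitrate, without overlap. Fth1 stood at 264 to 1482 and 1407 to 2568 per 1000000, and overlapped through Hypoxia 1. On that scale 2 members were higher without overlap (Ftl1 and Slc39a14; 6.63% of genes), 1 was lower (Cybrd1; 15.7% of genes) and 7 overlapped.

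**Figure D3:**
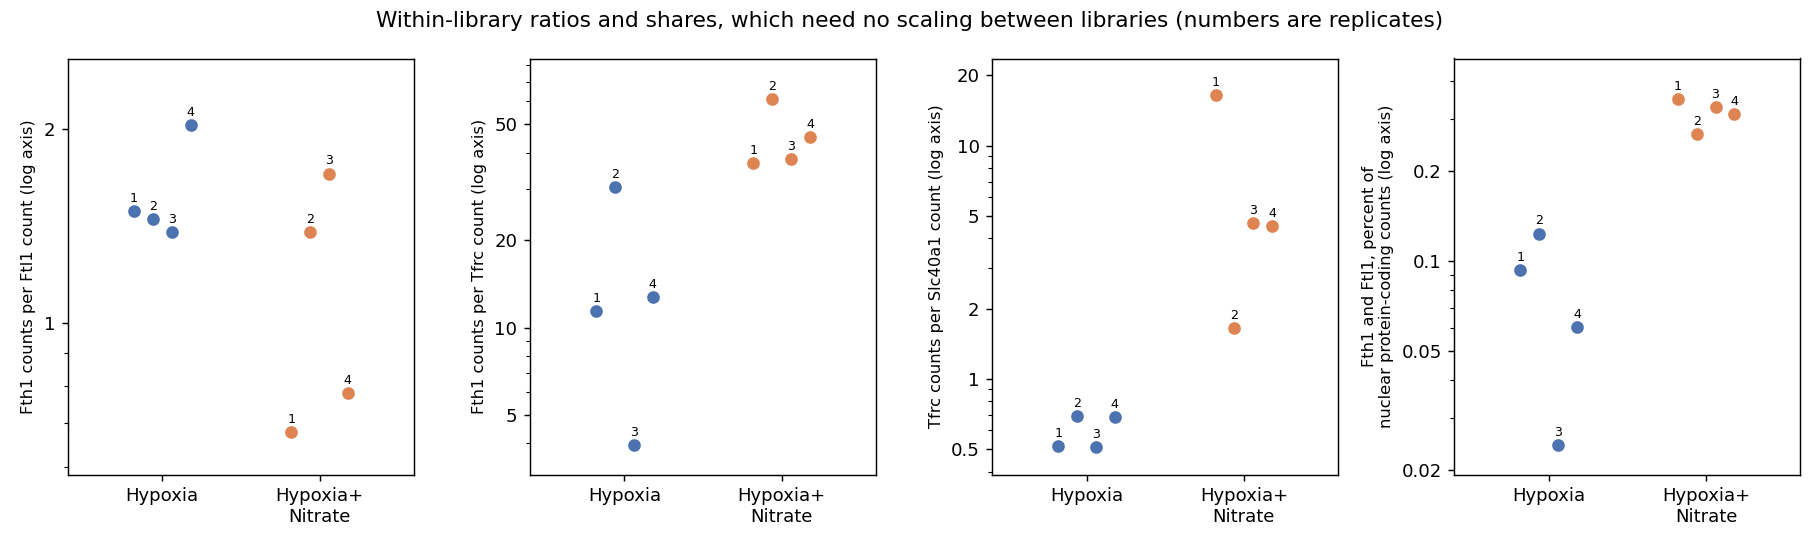
Count ratios within each library and the ferritin share of nuclear protein-coding counts, on log axes, with Hypoxia on the left and Hypoxia+Nitrate on the right; numbers are replicates. The ferritin share is 0.0243% to 0.124% in Hypoxia and 0.268% to 0.348% in Hypoxia+Nitrate.

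How far the members' values moved with scaling and background was examined gene by gene. Scaled by library size only, edgeR called 1 member, Ftl1 (log2 fold change 3.06, adjusted p = 0.0464), and Fth1 missed the threshold (2.69, 0.101). With the background level of each library as a covariate, edgeR called none of the 10 members and none of the 35431 genes (0.0%) in either direction, with 2638 genes and 0 members at an unadjusted p below 0.05. Under that model the log2 fold change was 1.54 for Fth1 (adjusted p = 0.883) and 1.25 for Ftl1 (0.920), and that of Heph was -1.99 (0.870). With the background subtracted, limma-voom called 3 members higher (Ftl1, Tfrc and Slc39a14) beside 4.25% of the genes it tested. It called no member lower (9.24% of genes), with 1 member lower at an unadjusted p below 0.05, and Slc40a1 and Steap3 did not pass its filter. Levels below 0 after subtraction were set to 0 before the test. Slc39a14 was below 0 in every Hypoxia library, and Tfrc stood at 17.9, -3.63, -1.89 and 0.231 per 1000000 in Hypoxia 1 to 4. The Tfrc and Slc39a14 calls therefore start from Hypoxia counts that could not be told from background.

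**Figure D4:**
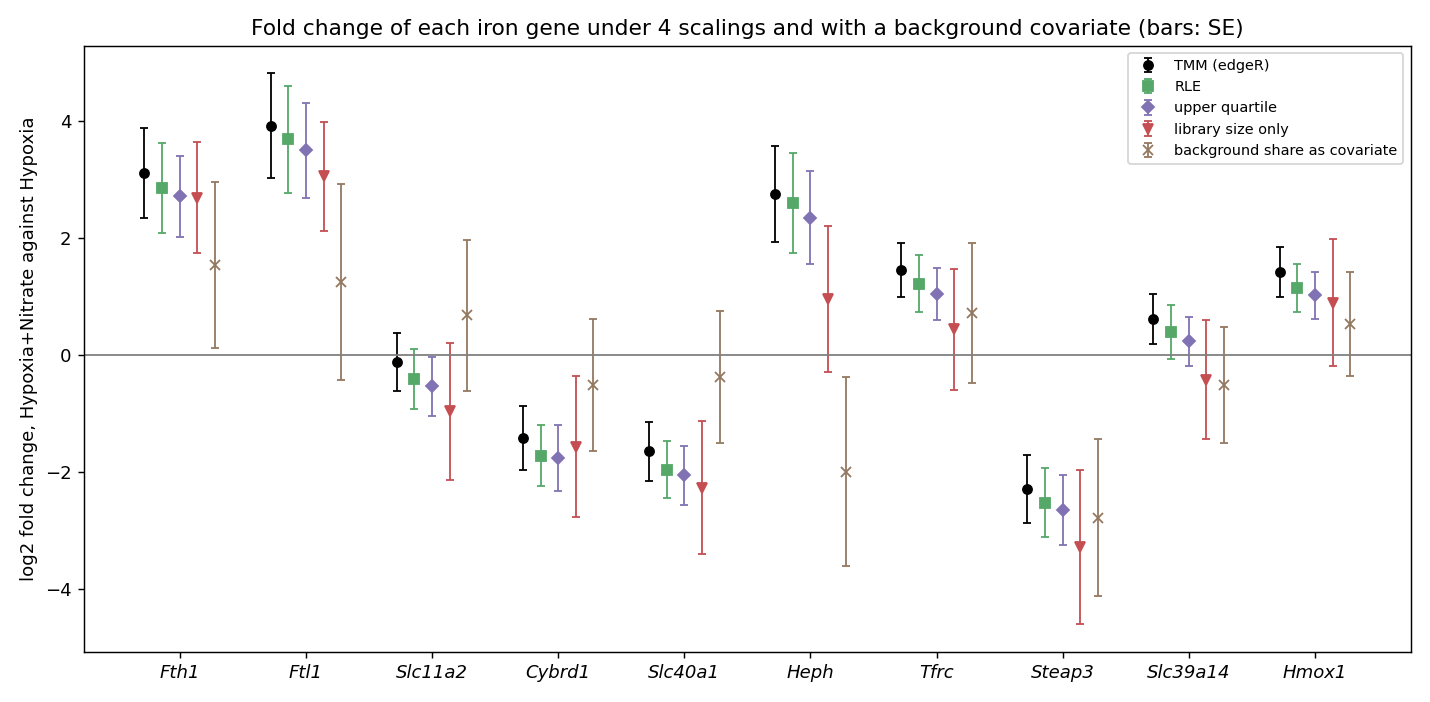
Log2 fold change of each of the 10 genes, Hypoxia+Nitrate against Hypoxia, under 4 scalings and with the background as a covariate; bars are SE. Fth1 and Ftl1 are above 0 under all 5, and Heph is above 0 under the 4 scalings and at -1.99 with the covariate.

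Beyond the 10 members, a list of 55 other iron and haem genes was read the same way. Of the 53 tested, 18 rose (34.0%) and 35 did not pass, beside 11.7% of all genes tested and 18.5% of nuclear protein-coding genes called higher. None fell by edgeR, with 4 lower at an unadjusted p below 0.05, and DESeq2 called 8 lower (32.8% of all genes it tested) and limma-voom 6 (33.7%). Their median log2 fold change was 0.88.

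All 6 genes of iron and oxygen sensing rose, beside the same 18.5% of nuclear protein-coding genes. In the summed Hypoxia libraries 5 of them stood near or below the expected background (0.409 to 1.54 times), so their fold changes start from counts that could not be told from it, and Epas1 stood at 4.75 times. Aco1, iron regulatory protein 1, stood at 7.08, 5.96, 6.59 and 9.40 CPM in Hypoxia and 245, 15.5, 12.4 and 339.9 CPM in Hypoxia+Nitrate, a log2 fold change of 4.40 (SE 1.06, edgeR adjusted p = 0.0157). Ireb2, iron regulatory protein 2, rose by 1.61 (adjusted p = 0.0447), Epas1 by 1.42 (0.0367), Hif1a by 2.22 (0.0171) and their partner Arnt by 1.61 (0.0156). As with Heph, Aco1 was highest in Hypoxia+Nitrate 1 and 4, which hold the most enterocyte marker RNA. Epas1 had no such split, at 59.0, 85.7, 84.5 and 76.1 CPM in Hypoxia+Nitrate and 19.2 to 39.7 CPM in Hypoxia.

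Most of the other roles are lists of a few genes, whose counts are read against the 18.5% above. In haem breakdown 2 of 3 rose: Hmox2, the constitutive haem oxygenase (log2 fold change 3.58, edgeR adjusted p = 0.00921), and Blvra, biliverdin reductase (2.08, 0.0318). Of 5 haem transport genes 1 rose, a share (20.0%) near that of nuclear protein-coding genes: the endosomal haem exporter Slc48a1 (1.99, adjusted p = 0.0112). Among storage genes and chaperones 2 of 3 tested rose, both iron chaperones that load ferritin: Pcbp1 (3.49, 0.0132) and Pcbp2 (2.77, 0.00917). In mitochondrial iron handling 4 of 11 rose, among them the iron-sulphur scaffold Iscu (3.08, 0.0101) and the glutaredoxin Glrx5 (2.70, 0.0136). In haem synthesis 3 of 8 rose, among them Alad (2.91, 0.0187) and Alas1, the first enzyme of the pathway (2.21, 0.0300). In the summed Hypoxia libraries Hmox2, Blvra, Alas1, Iscu and Glrx5 stood at 1.34 to 2.50 times the expected background, inside the receptor-gene range. Slc48a1 and Alad stood at 2.62 and 2.76 times, and Pcbp1 and Pcbp2 at 4.56 and 5.30 times. Each gene named here was highest in Hypoxia+Nitrate 1 and 4, and Blvra and Alad overlapped between the groups.

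None of 7 genes of the transferrin cycle, 2 export oxidases, 2 siderophore and lactoferrin genes and 6 tested genes of the hepcidin axis passed in either direction. Hamp, the hepcidin gene, is made chiefly in liver and stood at 2.50 ± 1.47 CPM (SD, n = 4) in Hypoxia and 2.39 ± 1.61 CPM in Hypoxia+Nitrate. Its log2 fold change was -0.06 (SE 0.807, edgeR adjusted p = 0.957). Hamp2, a hepcidin copy of the mouse, did not pass the filter on low counts and stood at 0.928 ± 0.440 CPM in Hypoxia and 0.0544 ± 0.109 CPM in Hypoxia+Nitrate (SD, n = 4 each).

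**Figure D5:**
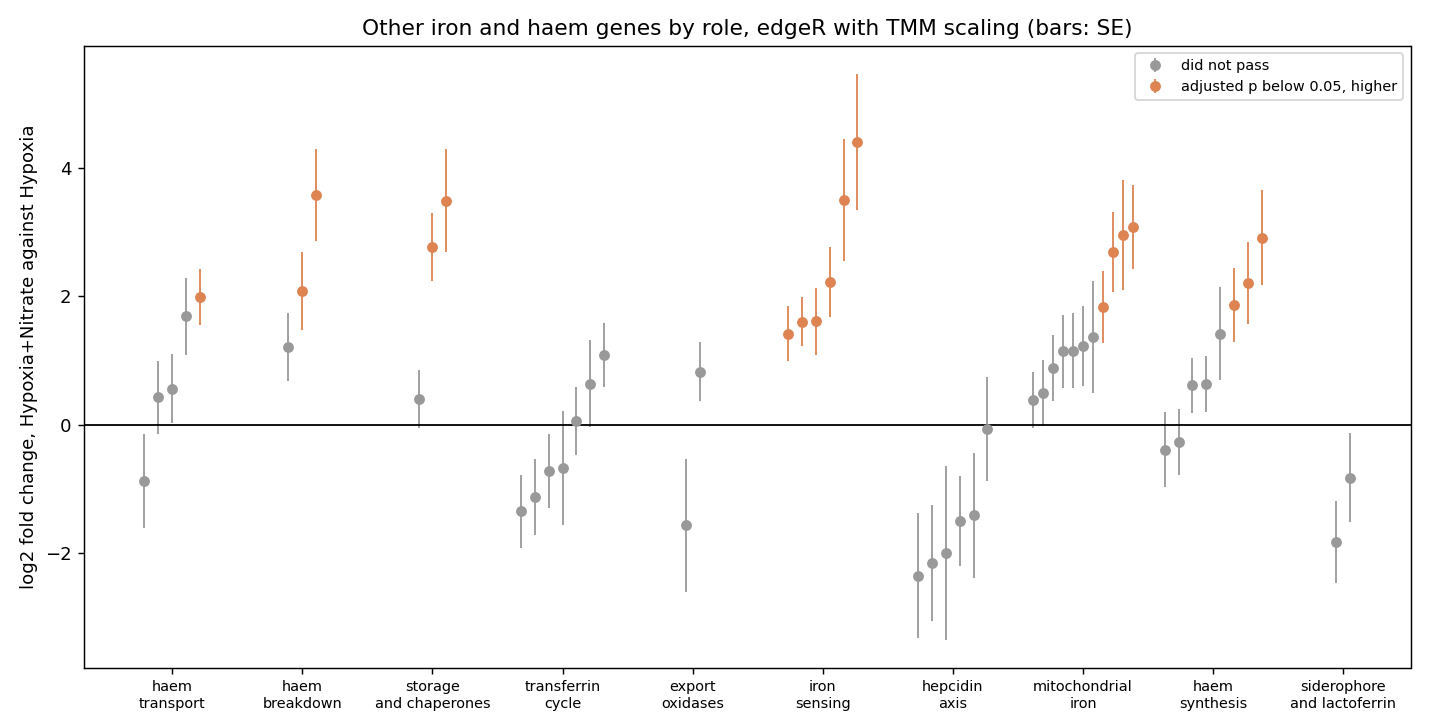
Log2 fold change of the other iron and haem genes, Hypoxia+Nitrate against Hypoxia, grouped by role; points are genes and bars are SE. All 6 genes of iron sensing lie above 0 and passed the test, and none of the 6 tested genes of the hepcidin axis did.

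Across the 8 libraries and 14959 genes, the genes whose log CPM was most like that of Fth1 were Rpl8 (Pearson r = 0.996), Rpl14 (0.996) and Eps15l1 (0.996). Those most like Tfrc were Leprot (r = 0.991), Aff4 (0.988) and Ebp (0.984). These correlations describe 8 points that share the depth, background and group differences given above.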

How the data were processed

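The values deposited by the authors are raw counts, 1 whole number per gene and library, in 8 libraries. HISAT, featureCounts 1.5.0-p3, DESeq 1.8.3 and build GRCm38 are named per the submitters' processing notes. Not given in the sources used here are the annotation, the strand setting and how reads with several alignments were treated. Per the labels' protocols, the libraries came from a stranded kit, and the RNA isolation text speaks of islets.

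Counts were tested in R 4.3.3 with edgeR 4.0.16 (filterByExpr, minimum count 10 and minimum total 15, TMM scaling, quasi-likelihood test, Benjamini-Hochberg threshold 0.05); SE is the log2 fold change divided by the square root of F. DESeq2 1.42.0 and limma 3.58.1 were alternatives. Gene models were GENCODE M21, which matched 55240 of 55421 IDs. Expected background is the counts per kilobase over 1472 receptor genes times a gene's unique exonic length, multiplied by 0.5 on X and Y. The code was tested on simulated data.

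Members, lists and the background measure were chosen with earlier results of these data known. Named genes are all members; of the wider list, Epas1, Hif1a, Aco1, Ireb2, Hamp and Hamp2, and per role up to 2 called genes with the lowest p; and the 3 genes most like Fth1 and Tfrc. The replicate numbers did not pair the libraries. The number of libraries and the counts per gene set the precision.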

Additional observations from a re-analysis of the deposited data

Results flagged for a closer look

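In 2 of the 20 groups of 4 libraries looked at (10 genes, each in both treatments), 1 library stood apart from the other 3 by Dixon's criterion at the 95% level, beyond which chance puts about 1 group in 20. Both were the highest Hypoxia value and came from Hypoxia 2: Cybrd1 at 10.9 CPM and Hmox1 at 7.71 CPM. Without Hypoxia 2, Cybrd1 still did not pass (edgeR log2 fold change -1.27, adjusted p = 0.187) and Hmox1 still passed (1.72, adjusted p = 0.0384).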

How the results depend on the processing

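The count of members called higher and lower was 5 and 2. It was 4 and 3 with DESeq2, 3 and 3 with RLE scaling or limma-voom, 2 and 3 with upper-quartile scaling, 1 and 0 with library size only, 3 and 2 on nuclear protein-coding genes only or without both Hypoxia+Nitrate 1 and 4, 0 and 0 without both Hypoxia 1 and 2 or with the background covariate, and 3 and 0 with background subtracted. Leaving out 1 library gave 0 to 5 higher and 0 to 3 lower. Of all genes tested, DESeq2 called 8.67% higher and 32.8% lower, limma-voom 10.9% and 33.7%, and upper-quartile scaling 8.03% and 15.3%. RLE scaling called 3237 and 6012 of 35431 genes. Without both Hypoxia+Nitrate 1 and 4 the shares were 10.1% and 17.6%, and without both Hypoxia 1 and 2 they were 1.51% and 8.74%. The 3 of 10 members called lower with DESeq2 and with limma-voom were therefore near the share of all genes. Of the wider list (18 and 0), the counts were 18 and 8 with DESeq2, 13 and 2 with RLE, 15 and 6 with limma-voom, 11 and 1 with upper quartile, 0 and 0 with library size only or the covariate, 14 and 2 on nuclear protein-coding genes only, 12 and 2 without both Hypoxia+Nitrate 1 and 4, 3 and 0 without both Hypoxia 1 and 2, 3 and 3 with background subtracted, and 19 and 1 with no filter; leaving out 1 library gave 3 to 23 and 0 to 6. With the replicate block, 1 member was called higher and 0 lower, and 9 and 0 of the wider list; same-numbered libraries correlated at 0.0506, -0.182, 0.184 and -0.0503, and 3 of 8 correlated best with their own number. The CPM filter and adding ferritin pseudogenes to their parents, the latter chosen after seeing the data, left the counts at 5 and 2.

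Signs turned for Slc11a2 (0.68 with the covariate, 0.75 with background subtracted, 0.35 without both Hypoxia 1 and 2, 0.058 with no filter, 0.26 without Hypoxia 1, 0.24 without Hypoxia+Nitrate 3, in a range of -0.31 to 0.26 when 1 library was left out), Heph (-1.99 with the covariate) and Slc39a14 (-0.51 with the covariate, -0.42 with library size only). Ftl1 passed in 18 of 22 alternatives, Fth1 in 15 of 22, Steap3 in 14 of 21, Slc40a1 in 11 of 21, Hmox1 in 10 of 22, Heph in 8 of 22, Tfrc in 6 of 22, Cybrd1 in 5 of 22, Slc39a14 in 1 of 22 and Slc11a2 in 0 of 22. The log2 median of all genes tested moved from -0.58 (TMM) to -0.87 (RLE), -0.94 (upper quartile) and -1.07 (library size only). Across the alternatives that kept all libraries, other than the covariate and the subtraction, 0.686% to 15.1% of all genes were called higher and 4.39% to 33.7% lower. With 1 library left out these were 1.95% to 14.3% and 3.61% to 39.5%. Fewer libraries or genes enter the alternatives that leave some out; otherwise the cause was not tested. Members with Hypoxia counts near the expected background limit what their values can show.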
